A study of Mus musculus with 2 samples.

Results

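Open chromatin at 10 cyclic nucleotide phosphodiesterase genes was compared between CD137+ and PDGFRα+ mouse adipose progenitors. The genes were Pde4d, Pde4b, Pde4a, Pde3a, Pde3b, Pde7b, Pde8a, Pde8b, Pde10a and Pde1a, out of 21883 protein-coding genes of the RefSeq table for GRCm38.p6, which is mm10. A listed peak was taken for a gene when its centre lay in the gene or within 50 kb of either end. This choice by position gave 30 of 14483 peaks of the CD137 list and 33 of 8002 peaks of the PDGFRα list, 63 of 22485 in all.

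ATAC-seq marks accessible DNA through insertions of a transposase. Both cell groups came from C57BL/6 adipose tissue, subcutaneous or visceral (SAT or VAT in the labels), by magnetic sorting, were put through an adipogenic cocktail and received dexamethasone, a synthetic glucocorticoid, at 1 µM. CD137+ cells gave 1 library and PDGFRα+ cells, also labelled CD140+, gave 1 library. The labels give neither the depot of each group nor the number or age of the mice, and their extraction text describes embryonic cells. All cells analysed here had dexamethasone, so no value measures its effect, and sorting on 1 surface protein does not fix what else the cells were.

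Each list holds only the peaks that the submitters call unique, without height or read number, so depth is unknown. If unique means found in 1 group alone, a site open in both is on neither list, and a gene with no listed peak is therefore not shown to be closed. Of all listed peaks 64.4% were CD137 peaks. Among markers counted within the same 50 kb, adipose progenitor genes had 11 CD137 and 4 PDGFRα peaks. Adipocyte genes had 10 and 3, of which Pparg gave 5 and 1. For beige and brown fat genes the numbers were 16 and 5, with 7 and 1 from Ebf2. Mesothelial genes had 2 and 7, of which Wt1 alone gave 0 and 5. Endothelial genes had 4 and 6, smooth muscle and pericyte genes 3 and 5, immune genes 2 and 1, and early embryo genes 4 and 2. Because the lists may leave out shared peaks, these numbers cannot show which cell types were present, and their part in the results was not tested.

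Phosphodiesterases break the ring of cAMP or cGMP and so end the signal that adenylyl cyclases or guanylyl cyclases started. In fat cells cAMP rises after beta-adrenergic stimulation, activates protein kinase A and drives lipolysis and, in brown and beige cells, heat production. The PDE4, PDE7 and PDE8 enzymes are specific for cAMP, whereas PDE1, PDE3 and PDE10 enzymes split both cyclic nucleotides. PDE3B is the form through which insulin restrains lipolysis. PDE8 enzymes are insensitive to IBMX, the general phosphodiesterase inhibitor of common adipogenic cocktails, and the labels do not say what the cocktail held here.

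Sequences from RefSeq (GRCm38.p6) are shown for 4 promoters and a microRNA gene in these windows. The promoters run from 250 bases before the first transcribed base to 50 after it. The first is the Pde1a promoter at chr2:79908350-79908649 on the minus strand, the phosphodiesterase promoter with the nearest listed peak, 1.16 kb away. The Pde4b promoter at chr4:102569810-102570109 on the plus strand had the next shortest gap, 5.82 kb to a CD137 peak. A further one belongs to 1700010I14Rik, the gene beside Pde10a, at chr17:8988083-8988382 on the plus strand, which lies whole inside a PDGFRα peak. The last, the Pde8a promoter at chr7:81213015-81213314 on the plus strand, was chosen for its match to the core of the cAMP response element; its nearest peak, of the CD137 list, was 16.4 kb upstream, farther than those of several promoters not printed. Capitals mark matches on either strand to the letters TGTTCT, one side of the glucocorticoid response element, GGAATG, a TEAD motif, or TGACG, the core of the cAMP response element, and the Pde4b and 1700010I14Rik promoters hold no match.
Pde1a promoter: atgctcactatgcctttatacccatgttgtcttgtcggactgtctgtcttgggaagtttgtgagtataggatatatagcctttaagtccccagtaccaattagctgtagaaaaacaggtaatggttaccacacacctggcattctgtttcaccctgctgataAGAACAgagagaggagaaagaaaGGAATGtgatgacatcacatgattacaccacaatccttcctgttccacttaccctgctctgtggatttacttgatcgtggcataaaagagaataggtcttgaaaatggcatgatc
Pde4b promoter: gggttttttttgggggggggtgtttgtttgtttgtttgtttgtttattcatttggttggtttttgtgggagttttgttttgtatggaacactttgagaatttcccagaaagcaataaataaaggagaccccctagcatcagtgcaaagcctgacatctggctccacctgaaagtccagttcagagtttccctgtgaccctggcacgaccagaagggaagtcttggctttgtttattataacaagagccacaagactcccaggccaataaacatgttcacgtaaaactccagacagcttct
1700010I14Rik promoter: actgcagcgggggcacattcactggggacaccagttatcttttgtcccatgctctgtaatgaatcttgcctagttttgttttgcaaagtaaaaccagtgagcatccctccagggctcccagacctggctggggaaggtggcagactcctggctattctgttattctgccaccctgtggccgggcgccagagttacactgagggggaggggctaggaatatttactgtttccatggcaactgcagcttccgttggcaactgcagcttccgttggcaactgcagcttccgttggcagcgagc
Pde8a promoter: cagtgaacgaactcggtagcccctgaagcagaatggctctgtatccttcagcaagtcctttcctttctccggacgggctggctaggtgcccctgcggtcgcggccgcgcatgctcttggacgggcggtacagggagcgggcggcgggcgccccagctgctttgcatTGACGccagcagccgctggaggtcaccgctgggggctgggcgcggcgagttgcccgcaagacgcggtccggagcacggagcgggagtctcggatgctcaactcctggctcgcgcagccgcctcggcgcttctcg
The 2 mature forms of miR-582, whose gene lies in Pde4d at chr13:109324744-109324824 on the plus strand, 2.13 kb from a CD137 peak, follow with the seed (bases 2 to 8) in capitals.
mmu-miR-582-5p: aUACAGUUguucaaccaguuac
mmu-miR-582-3p: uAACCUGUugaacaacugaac
The 2 forms do not share a seed.

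Listed peaks were found at 9 of the 10 genes, 8 with CD137 peaks and 9 with PDGFRα peaks. Among all 2428 protein-coding genes of 100 kb or more, to which 9 of the 10 belong, 82.0% had a CD137 peak in such a window and 64.5% a PDGFRα peak. Over genes of any length those shares were 49.5% and 40.4%. Peaks of both lists were present at 8 phosphodiesterase genes, as at 56.0% of the genes of 100 kb or more and 24.8% of all genes. The lone gene without a peak was Pde4a, the shortest at 47.5 kb. No peak at all was the case for 9.56% of the genes of 100 kb or more and 34.9% of all genes.

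The 63 peaks were divided into 30 CD137 and 33 PDGFRα peaks, a CD137 share of 47.6% (exact 95% interval 34.9 to 60.6%). Over all listed peaks the CD137 share was 64.4% (63.8 to 65.0%), and over the windows of genes of 100 kb or more it was 64.1% (63.1 to 65.1%). The interval at the phosphodiesterase genes lay below both values. The genes were chosen with earlier results of these data known, so this is no test of a difference. It covers counting error only, and neighbouring peaks of a gene are not independent. Without Pde10a the share was 54.7% (40.4 to 68.4%), an interval that holds the share of the whole lists. Counted in the wider 50% of each list, it was 48.4% (30.2 to 66.9%), which also holds it. Neither group has a replicate, so the spread between libraries is unknown.

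**Figure D1:**
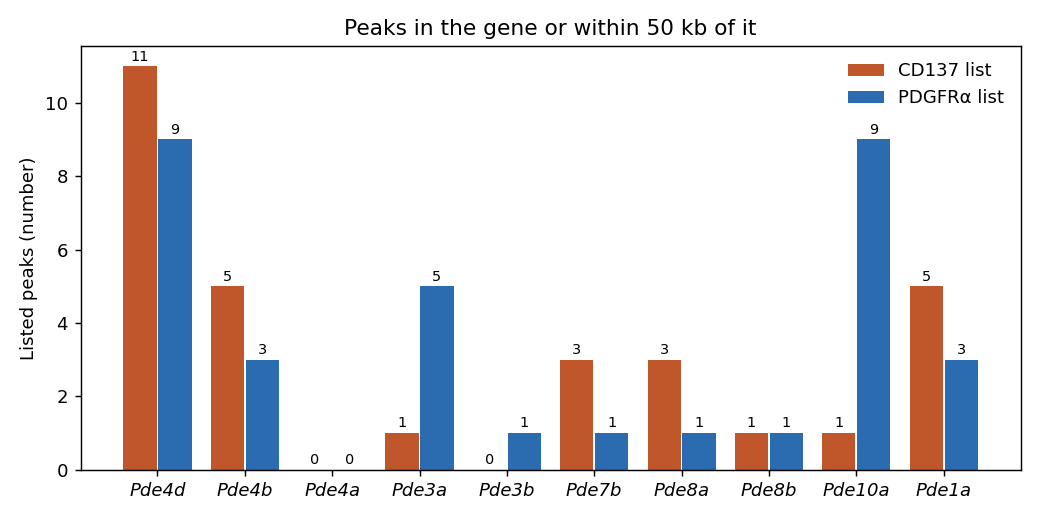
Number of listed peaks (vertical axis) in each of 10 phosphodiesterase genes or within 50 kb of it, with CD137 bars left of PDGFRα bars. Pde10a has 1 CD137 and 9 PDGFRα peaks and Pde3a 1 and 5, while Pde4d has 11 and 9.

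The genes differed among themselves in the list that led. CD137 peaks were more numerous at 5 genes, Pde4d, Pde4b, Pde7b, Pde8a and Pde1a, each by 2 peaks, and 57.2% of the genes of 100 kb or more led the same way. PDGFRα peaks were more numerous at 3 genes, Pde10a by 8 peaks, Pde3a by 4 and Pde3b by 1, against 20.7% of the genes of 100 kb or more. Pde8b had 1 peak of each list. By subfamily, PDE4 genes had 16 CD137 and 12 PDGFRα peaks, PDE8 genes 4 and 2, PDE7 (Pde7b) 3 and 1, PDE1 (Pde1a) 5 and 3, PDE3 genes 1 and 6 and PDE10 (Pde10a) 1 and 9. Grouped by substrate after these counts were seen, the cAMP-specific genes had 23 CD137 and 15 PDGFRα peaks (60.5%, 43.4 to 76.0%). Genes of the enzymes for both nucleotides had 7 and 18 (28.0%, 12.1 to 49.4%), and without Pde10a they had 6 and 9 (40.0%, 16.3 to 67.7%), an interval that overlaps the one of the cAMP-specific genes. Outside the 10, genes of the same substrate class were Pde11a (6 and 1), Pde1c (2 and 3), Pde2a (1 and 2) and Pde1b (1 and 1).

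**Figure D2:**
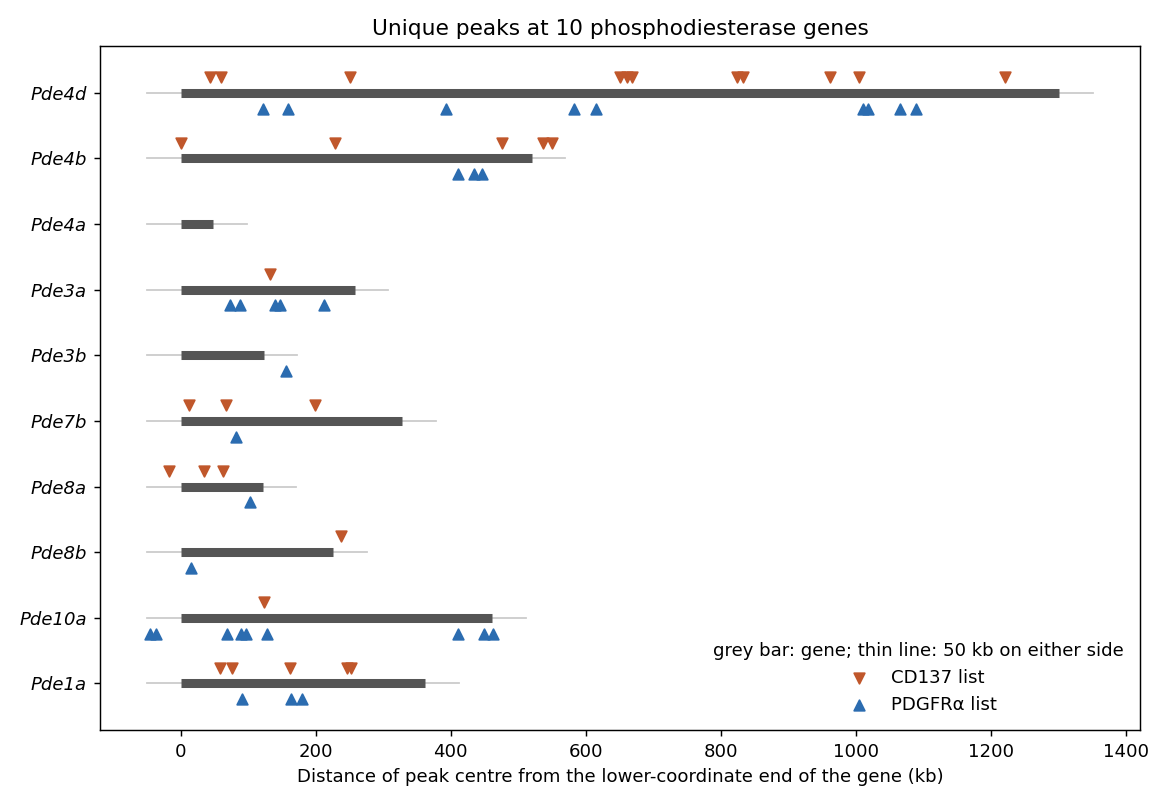
Position of each listed peak's centre in kb from the lower-coordinate end of its gene (horizontal axis), with CD137 peaks above and PDGFRα peaks below each gene; the thick bar is the gene and the thin line 50 kb on either side. At Pde4d 7 CD137 peaks in a row are followed by 4 PDGFRα peaks, and the 9 PDGFRα peaks of Pde10a leave its middle empty.

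Pde4d encodes a cAMP-specific enzyme with many isoforms from alternative starts, and at 1302 kb (chromosome 13, 108654177 to 109955969) it was the longest of the genes and held the most peaks. All 11 CD137 peaks and 9 PDGFRα peaks lay inside the gene and were classed intron, under ENSMUSG00000021699. Per 100 kb of gene this was 0.845 CD137 and 0.691 PDGFRα peaks. Of the genes of 100 kb or more, 39.0% had a higher CD137 density and 26.5% a higher PDGFRα density. At least 11 CD137 peaks in the window were found at only 20 of the 2428 genes (0.824%), and at least 9 PDGFRα peaks at 9 (0.371%), limits set from the counts of Pde4d.

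Along Pde4d the peaks were ordered as follows. From the first end came 2 CD137 peaks, at chr13:108697283-108698746 (1463 bp) and chr13:108713984-108714932 (948 bp). Next stood 2 PDGFRα peaks, at chr13:108775297-108776580 (1283 bp) and chr13:108812455-108813990 (1535 bp), and a CD137 peak at chr13:108904768-108905784 (1016 bp). In the middle were 3 PDGFRα peaks, at chr13:109046798-109048183 (1385 bp), chr13:109235863-109236840 (977 bp) and chr13:109268764-109269886 (1122 bp). Then 7 CD137 peaks stood in a row without a PDGFRα peak between them.

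Of those 7, a trio lay within 17.5 kb, at chr13:109305148-109306107 (959 bp), chr13:109314963-109316292 (1329 bp) and chr13:109321652-109322618 (966 bp), the last being the neighbour of the miR-582 gene printed above. A pair followed at chr13:109477574-109478719 (1145 bp) and chr13:109486797-109488153 (1356 bp), then single peaks at chr13:109615600-109616786 (1186 bp) and chr13:109658388-109660146 (1758 bp, the widest CD137 peak of the 10 genes). The list then changed over 4.62 kb, the gap to a run of 4 PDGFRα peaks. These lay at chr13:109664768-109666329 (1561 bp), chr13:109671275-109672142 (867 bp), chr13:109719754-109721072 (1318 bp) and chr13:109743530-109744760 (1230 bp). A CD137 peak at chr13:109874479-109875364 (885 bp) closed the gene, and 28.5 kb beyond it lies the Mir1904 gene, also inside Pde4d. Of the 19 neighbouring pairs in Pde4d, 13 (68.4%) were of the same list, against 57.4% of the 22464 pairs over all chromosomes, a difference of few pairs that was not tested.

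The deposited lists put 3 more CD137 peaks under the Pde4d identifier, between 108501064 and 108548446. They lie 106 to 152 kb before the first base of the RefSeq gene and were classed intron, although that RefSeq gene does not reach them. With them Pde4d has 14 CD137 and 9 PDGFRα peaks. The RefSeq promoter table has 1 Pde4d start, and the nearest listed peak, of the CD137 list, was 43.1 kb from that promoter.

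Pde4b, another cAMP-specific gene and one needed for full TNF production by mouse macrophages, spans 519.9 kb (chromosome 4, 102087332 to 102607275). It had 5 CD137 and 3 PDGFRα peaks, of which 3 and 3 were inside the gene (0.577 per 100 kb in each list). The CD137 peak at chr4:102087143-102088431 (1288 bp, up5k) covered the first base of the gene, which is on the plus strand. No other phosphodiesterase gene had a gene end inside a listed peak, and 5.13% of all protein-coding genes had one. Further CD137 peaks were in introns at chr4:102315292-102316260 (968 bp) and chr4:102562966-102563986 (1020 bp), and this last peak also lay inside the non-coding gene Gm52667. The other 2 were intergenic and 17.2 and 30.5 kb downstream, at chr4:102623835-102625144 (1309 bp) and chr4:102637098-102638370 (1272 bp).

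All 3 PDGFRα peaks of Pde4b were intronic and lay within 35.8 kb, between those of the CD137 list. They were at chr4:102498403-102499171 (768 bp), chr4:102520978-102521855 (877 bp) and chr4:102532984-102534251 (1267 bp). Thus the beginning of Pde4b and its downstream side had CD137 peaks alone, and the PDGFRα peaks stood together late in the gene. Pde4a, the remaining cAMP-specific PDE4 gene here (chromosome 9, 21165700 to 21213248), had none. Its nearest peaks were a CD137 peak 100.3 kb away at chr9:21312835-21314190 and a PDGFRα peak 117.0 kb away at chr9:21329325-21331083.

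Pde7b encodes a cAMP-specific enzyme that is not sensitive to the PDE4 inhibitor rolipram (chromosome 10, 20397052 to 20725078, 328.0 kb). Its 3 CD137 peaks and 1 PDGFRα peak were all intronic, 0.915 and 0.305 per 100 kb. CD137 peaks lay at chr10:20408859-20409642 (783 bp, the narrowest of that list here), chr10:20463626-20465166 (1540 bp) and chr10:20595060-20595979 (919 bp). The PDGFRα peak at chr10:20478011-20479328 (1317 bp) was 12.8 kb from the middle one.

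Pde8a and Pde8b encode high-affinity cAMP-specific enzymes. Pde8a (chromosome 7, 81213265 to 81334535, 121.3 kb) had intronic CD137 peaks at chr7:81247443-81248683 (1240 bp) and chr7:81275285-81276386 (1101 bp) and an intergenic one at chr7:81195271-81196610 (1339 bp), upstream of the promoter printed above. Its PDGFRα peak at chr7:81315317-81316231 (914 bp) was intronic and nearer the end of the gene. At 1.65 CD137 and 0.825 PDGFRα peaks per 100 kb it had the highest CD137 density of the 10 genes, and 12.5% of the genes of 100 kb or more were higher. Pde8b (chromosome 13, 95024105 to 95250401, 226.3 kb, minus strand) had a CD137 peak 11.2 kb upstream at chr13:95261126-95261985 (859 bp, intergenic) and an intronic PDGFRα peak at chr13:95038954-95039867 (913 bp). With 4 and 2 peaks, the shares of Pde8a and Pde8b have intervals of 19.4 to 99.4% and 1.26 to 98.7%, too wide to order them.

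Pde3a encodes a cGMP-inhibited enzyme best known from heart, platelets and oocytes (chromosome 6, 141249269 to 141506862, 257.6 kb). It had 1 CD137 peak, at chr6:141380674-141381852 (1178 bp, intron), and 5 PDGFRα peaks, all inside the gene. The PDGFRα peaks of the class intron were at chr6:141321199-141322641 (1442 bp), chr6:141387805-141388731 (926 bp), chr6:141395318-141396804 (1486 bp) and chr6:141461457-141462929 (1472 bp). The remaining one, at chr6:141335600-141337647 (2047 bp), was classed up5k of another identifier, ENSMUSG00000107456, although it lies inside Pde3a by position. At 1.94 per 100 kb Pde3a had the highest PDGFRα density of the 10 genes, and 2.10% of the genes of 100 kb or more were higher, while 62.2% were higher in CD137 density.

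Pde3b, the fat cell form under insulin control (chromosome 7, 114415222 to 114537938, 122.7 kb), had no listed peak inside the gene. A single PDGFRα peak lay 32.8 kb past its higher end at chr7:114570158-114571268 (1110 bp, intergenic), beyond the neighbouring vitamin D 25-hydroxylase gene Cyp2r1. The nearest CD137 peak, at chr7:114363656-114365134, was 50.8 kb before the lower end and so just outside the window. Of the genes of 100 kb or more, 79.7% held at least 1 peak inside. Whether Pde3b was open in both groups or in neither cannot be read from these lists.

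Pde10a encodes an enzyme for both cyclic nucleotides that is best known from the striatum (chromosome 17, 8525187 to 8986648, 461.5 kb). It had 1 CD137 and 9 PDGFRα peaks, a CD137 share of 10% (exact interval 0.253 to 44.5%). Inside the gene were 1 and 6, or 0.217 and 1.30 per 100 kb, and 8.40% of the genes of 100 kb or more had a higher PDGFRα density. An excess of at least 8 PDGFRα peaks in the window, a limit taken from Pde10a itself, was found at 4 of 21883 genes (0.0183%). All 4 are among the 2428 genes of 100 kb or more, so the share over all genes overstates how rare this is for a long gene. The other genes, named after their values were seen, were Nav2 (2 and 10), Kif6 (1 and 9) and Celf4 (1 and 9). CD137 minus PDGFRα peaks at Pde10a was -7 without peaks within 5 kb of another protein-coding gene, and -5 in the gene alone.

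The PDGFRα peaks of Pde10a lay upstream of it, in its first part, and near or just past its end. Upstream and intergenic were chr17:8479608-8480790 (1182 bp) and chr17:8487481-8488387 (906 bp), 45.0 and 37.2 kb from the gene. In the first part of the gene, all intronic, were chr17:8592526-8593557 (1031 bp), chr17:8613892-8614814 (922 bp), chr17:8621335-8622643 (1308 bp) and chr17:8652255-8653594 (1339 bp). The lone CD137 peak, chr17:8647139-8648395 (1256 bp, intron), stood among these, 3.86 kb from the last.

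No listed peak followed for 281.5 kb, a stretch that holds both Pde10a starts of the promoter table. Near the end came chr17:8935077-8937233 (2156 bp, intron, the widest peak of the 10 genes) and chr17:8974622-8975390 (768 bp), the one exonic peak among the 63. The peak at chr17:8987870-8989152 (1282 bp, up5k of ENSMUSG00000023873) was 1.86 kb past Pde10a. It holds the 1700010I14Rik promoter printed above, so it belongs to that gene as much as to Pde10a. Without the 3 PDGFRα peaks outside the gene, 1 CD137 and 6 PDGFRα peaks remain.

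Pde1a encodes a calcium- and calmodulin-activated enzyme for both cyclic nucleotides (chromosome 2, 79834453 to 80196522, 362.1 kb, minus strand). It had 5 CD137 and 3 PDGFRα peaks, all intronic, 1.38 and 0.829 per 100 kb. The CD137 peaks were at chr2:79891514-79892757 (1243 bp), chr2:79909812-79911365 (1553 bp), chr2:79995932-79997254 (1322 bp), chr2:80079466-80081180 (1714 bp) and chr2:80086640-80087704 (1064 bp). The PDGFRα peaks were at chr2:79924243-79925288 (1045 bp), chr2:79997294-79999294 (2000 bp) and chr2:80013733-80014800 (1067 bp).

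At Pde1a a CD137 and a PDGFRα peak were only 40 bp apart, the smallest gap between the lists at these genes. These were the peaks at 79995932 (CD137) and 79997294 (PDGFRα), and the gap was far below the width of either. The CD137 peak at 79909812 lay 1.16 kb upstream of the Pde1a promoter printed above. That promoter has 1 match to TGTTCT, read as AGAACA, and 1 to GGAATG, in the 100 bases before its first transcribed base.

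**Figure D3:**
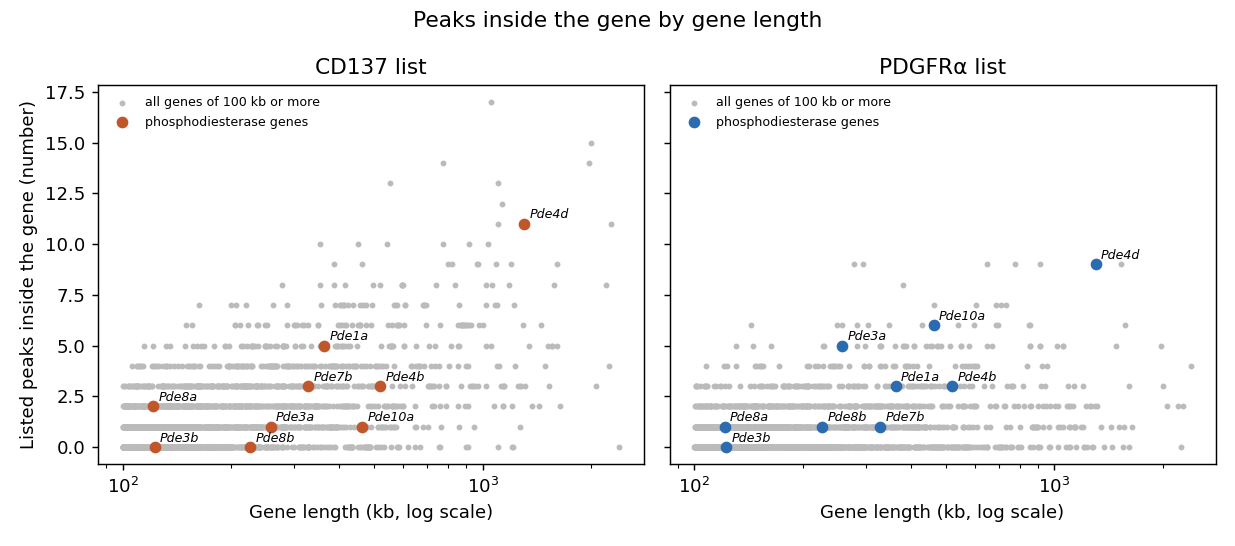
Listed peaks inside the gene (vertical axis) against gene length in kb (log scale) for 2428 protein-coding genes of 100 kb or more (grey) and the 9 phosphodiesterase genes of that length (coloured), CD137 list left and PDGFRα list right. Pde4d has 11 CD137 and 9 PDGFRα peaks at 1302 kb, and Pde3a and Pde10a stand high for their length in the PDGFRα panel with 5 and 6 peaks.

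Set on length, the 10 genes held 26 CD137 and 29 PDGFRα peaks inside 3749 kb, or 0.694 and 0.774 per 100 kb. The genes of 100 kb or more had 0.685 and 0.359 per 100 kb when summed in the same way. CD137 density at the phosphodiesterase genes was thus near that of other long genes, and the PDGFRα density was above it, also without Pde10a (0.760 and 0.700). The exact Poisson 95% interval of the PDGFRα density, for counting error only, was 0.518 to 1.11 per 100 kb. Of the 29 PDGFRα peaks, Pde4d held 9, Pde10a 6 and Pde3a 5, while Pde4a and Pde3b held 0. The genes were chosen with earlier results of these data known, and neighbouring peaks of a gene are not independent, so this is no test. Medians over genes gave 0.483 CD137 and 0.634 PDGFRα peaks per 100 kb at the phosphodiesterase genes, against 0.650 and 0.000 at the genes of 100 kb or more. Over the genome, measured to the last annotated gene of each chromosome, the lists held 0.532 and 0.294 per 100 kb.

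Introns took most peaks of both lists. Of the 30 CD137 peaks 25 were intronic, 4 intergenic and 1 up5k, and of the 33 PDGFRα peaks 27 were intronic, 3 intergenic, 2 up5k and 1 exonic. The intron shares were 83.3% (65.3 to 94.4%) and 81.8% (64.5 to 93.0%), against 59.9% and 59.2% for the windows of genes of 100 kb or more. Both intervals lay above those shares, and the choice of windows by gene body favours introns in either set, but not equally. Inside the gene lay 55 of the 63 peaks, against 6374 of the 8644 peaks in the windows of genes of 100 kb or more. The intron shares are therefore not compared like for like. No peak had the class down5k, which took 6.26% of CD137 and 5.71% of PDGFRα peaks in those windows, and with 30 and 33 peaks a count of 0 allows up to 11.6% and 10.6% (exact upper bounds).

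**Figure D4:**
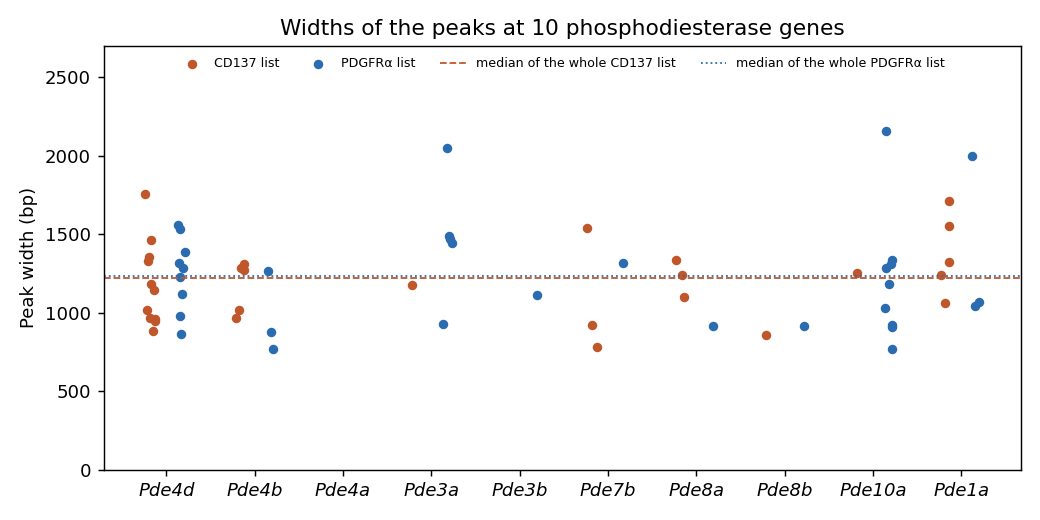
Width in bp of every peak at the 10 phosphodiesterase genes (vertical axis), with CD137 points left of PDGFRα points and lines at the medians of the whole lists. CD137 peaks run from 783 to 1758 bp and PDGFRα peaks from 768 to 2156 bp, and the 3 peaks of 2000 bp or more are PDGFRα peaks.

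Peak widths were like those of the lists as a whole. The median was 1213 bp for CD137 peaks (783 to 1758 bp) and 1230 bp for PDGFRα peaks (768 to 2156 bp), against 1221 and 1237 bp over the whole lists. The 3 peaks of at least 2 kb, at Pde10a, Pde3a and Pde1a, were PDGFRα peaks. In the whole lists 4.94% of CD137 and 5.52% of PDGFRα peaks were so wide, so 0 of 30 and 3 of 33 rest on few peaks. Of the 54 neighbouring pairs of peaks at these genes 34 (63.0%) were of the same list, against 57.4% of 22464 pairs over all chromosomes.

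Listed peaks were about as far from the known starts of these genes as from promoters in general. The promoter table has 21 entries for 8 of the 10 genes, with none for Pde3a and Pde3b, and 0 of the 21 overlapped a peak. One, the Pde1a promoter, was within 2 kb of a peak (4.76%). Of all 32851 promoters 7.50% were within 2 kb of a peak and 4.30% overlapped one. The median gap was 37.8 kb, against 34.3 kb over all promoters, and the largest was 147 kb, at Pde4a. The table is not complete, since the Pde4b end that a CD137 peak covers has no entry in it.

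Shares of promoters with a motif were close to those over all promoters. The cAMP response element core TGACG was in 5 of 21 (23.8%) against 20.8% of all promoters, the side TGTTCT in 4 (19.0%) against 19.0%, and GGAATG in 3 (14.3%) against 14.7%, on both strands. The full cAMP response element TGACGTCA was in 0 of 21 and in 1.79% of all promoters. The full glucocorticoid response element, AGAACA and TGTTCT with 3 bases of any kind between them, was in 0 of 21 and in 0.00913% of all promoters. TGACG and TGTTCT are parts of the full elements, and several entries of Pde8b overlap each other. Sequences of the peaks themselves were not used here.

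Other genes of cAMP and cGMP signalling, counted in the same windows, showed a CD137 share near that of the lists. Over 81 genes of 9 lists the CD137 share was 64.0% (57.1 to 70.5%), from 135 CD137 and 76 PDGFRα peaks. Peaks stood at 70 of the genes, 38 led by CD137, 23 by PDGFRα and 9 equal. For the other phosphodiesterase genes the share was 70.3% (53.0 to 84.1%), with 26 and 11 peaks spread over 14 of 15 genes. That interval overlaps the one of the 10 genes, and the difference was not tested. The list includes Pde12 (2 and 0) and Pde6d (1 and 0), whose products do not split cyclic nucleotides. Pde11a, for both cyclic nucleotides, had 6 and 1, and the calmodulin-activated Pde1c had 2 and 3.

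**Figure D5:**
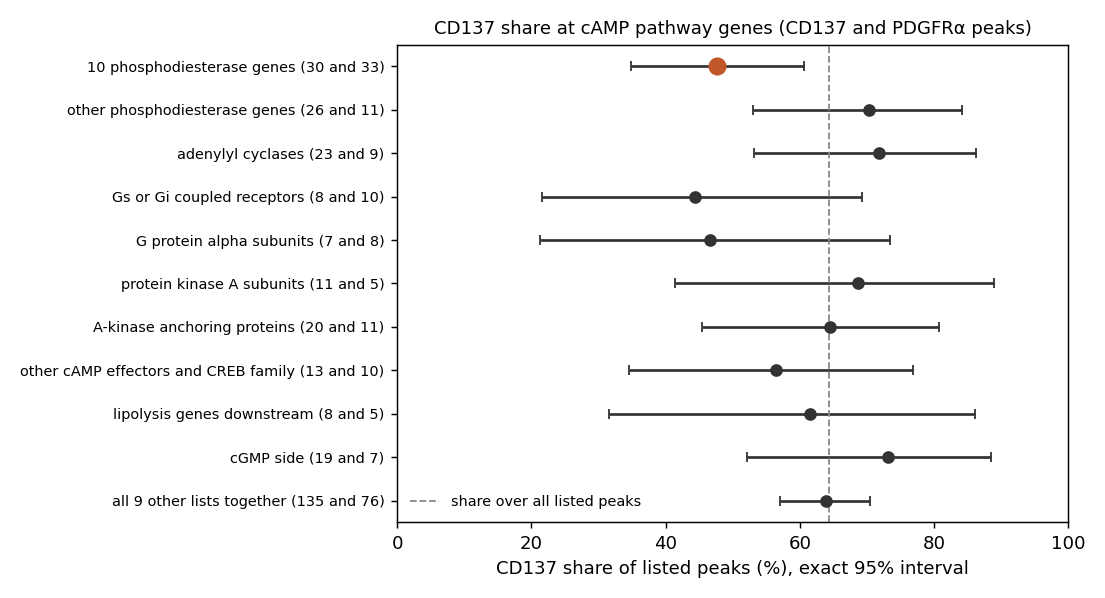
CD137 share of listed peaks in percent (horizontal axis, exact 95% intervals for counting error) at the 10 phosphodiesterase genes and 9 other lists of the pathway, with the numbers of CD137 and PDGFRα peaks in brackets and a dashed line at 64.4%, the share over all listed peaks. The interval of the 10 genes, 34.9 to 60.6%, ends below the line, and those of the 9 lists hold it. Genes and lists were chosen with earlier results of these data known, so the position of an interval is no test.

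All 10 genes of adenylyl cyclases, the enzymes that make cAMP, had listed peaks, 23 CD137 and 9 PDGFRα in sum (CD137 share 71.9%, 53.3 to 86.3%). CD137 peaks led at 8 of them and were equal at 2. Adcy9 had 5 and 0, Adcy1 3 and 2 and Adcy2 3 and 3. Receptors coupled to Gs or Gi had 8 and 10 (44.4%, 21.5 to 69.2%), spread over 10 of 13 genes, with 3 and 1 at the beta-adrenergic gene Adrb1 and 1 and 2 at the adenosine receptor gene Adora2b. All 5 G protein alpha subunit genes had peaks, 7 and 8 in sum (46.7%, 21.3 to 73.4%). Gnas, for the stimulatory subunit, had 1 and 3, the inhibitory Gnai3 2 and 2, and the olfactory Gnal 2 and 1.

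Downstream, the CD137 share was 68.8% (41.3 to 89.0%) at the protein kinase A subunit genes, 4 of 6 of which held 11 CD137 and 5 PDGFRα peaks. The regulatory subunit genes Prkar2b and Prkar1b had 4 and 2 and 3 and 2, and the catalytic Prkacb 3 and 1. A-kinase anchoring protein genes, which hold the kinase in place, had 20 and 11 over 10 of 10 genes (64.5%, 45.4 to 80.8%), with 7 and 2 at Akap6, 4 and 2 at Akap13 and 4 and 1 at Akap7. Other cAMP effectors and the CREB family had 13 and 10 at 7 of 9 genes (56.5%, 34.5 to 76.8%), led by Rapgef4, an exchange factor gated by cAMP (6 and 2), and the CREB coactivator gene Crtc3 (3 and 1).

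For lipolysis genes the CD137 share was 61.5% (31.6 to 86.1%), from 8 CD137 and 5 PDGFRα peaks over 5 of 6 genes. Abhd5, the activator of adipose triglyceride lipase, had 3 and 1, the monoglyceride lipase gene Mgll 3 and 0, and G0s2, an inhibitor of that same triglyceride lipase, 1 and 3. Genes of the cGMP side had 19 and 7 at 5 of 7 genes (73.1%, 52.2 to 88.4%), of which Prkg1, the cGMP-dependent kinase gene of 1201 kb, gave 12 and 3, Prkg2 4 and 0 and the natriuretic peptide clearance receptor gene Npr3 2 and 2.

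The genes most like Pde4d and Pde10a were sought by the sum of the absolute differences in CD137 and PDGFRα peaks inside the gene, over the 2 libraries. For Pde4d, with 11 and 9, they were Adamtsl1 and Arhgap26 (10 and 9 each), Nfia (10 and 6), Pakap (9 and 7) and Ctnna3 (8 and 6). For Pde10a, with 1 and 6, they were Shroom3 (1 and 6), Kcnab1 (0 and 6), Bach2 (2 and 6), Frmd4b (1 and 5) and Plce1 (2 and 6). All 10 are longer than 250 kb, but ties in counts were settled by the closest gene length, so this length comes in part from the choice. Itga1 (143.9 kb, 0 and 6) and Farp1 (248.6 kb, 2 and 6) differ from Pde10a by as little as Kcnab1 or Bach2 and were left out by length.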

How the data were processed

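The deposited data are 2 lists of peaks, 1 per library, whose columns per the file headers give each peak's position, an Ensembl ID and one of 5 classes (intergenic, intron, exon, up5k, down5k). CASAVA 1.8 and build mm10 are named, without a role, in the submitters' processing notes. Neither aligner and peak caller nor threshold and rule for uniqueness is stated (not given in the sources used here), so a deeper library could lengthen its list. Coordinates are as deposited, and width is end minus start. Of the peaks classed intron, 97.4% (CD137) and 97.2% (PDGFRα) had their centre in a RefSeq gene.

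Peaks were counted by centre in the gene span with 50 kb on either side, and density inside the gene per 100 kb. Shares carry exact (Clopper-Pearson) 95% intervals and densities exact Poisson ones. No p-value is given, with 1 library per group. The genes and gene lists were chosen with earlier results of these data known. Named genes are all 10 members and up to 3 genes with the most peaks per list (ties for the last place left out). Also named are the 5 genes closest in counts to each of the 2 members with the most peaks, with ties settled by closest gene length. Some further genes, among them Wt1, Pparg, Ebf2, Itga1, Farp1, Pde2a, Pde1b, Pde12 and Pde6d, were named after their values were seen. The counting and interval steps were tested on simulated data. Counts were made with pandas 2.3.3 and numpy 2.4.6 under Python 3.11.15, intervals with scipy 1.17.1 and plots with matplotlib 3.10.9.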

Additional observations from a re-analysis of the deposited data

How the results depend on the processing

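No paired analysis was possible because each group consists of a single library, which could not be left out either. Depth is unknown. The CD137 share lay between 46.4 and 50% in 9 of 10 other settings (gene alone, 5 or 100 kb, overlap, wider peaks, merged peaks, deposited IDs, and 2 chosen after seeing the data: introns alone and peaks away from other genes). With the widest CD137 peaks, as many as the PDGFRα list holds, it was 32.7%, from 16 CD137 peaks (0.347 per 100 kb), where the whole lists stand at 50%. The wider 50% of each list left 15 and 16 peaks (0.320 and 0.400 per 100 kb) and an interval of 30.2 to 66.9% that holds the whole lists' 64.5%, since fewer peaks were counted. Leaving out each gene in turn gave 44.2 to 54.7%. The sign of CD137 minus PDGFRα peaks reversed at Pde4d (-1 with the wider 50%, -4 with the widest CD137 peaks). It also reversed at Pde3b (1 within 100 kb) and Pde4b (-1 with introns alone). The sign held at Pde10a, Pde3a and Pde8a in all 10 settings. At Pde4b, Pde7b, Pde1a and Pde3b the difference was 0 in at least 1 setting.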

Other observations

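Between 50 and 100 kb from the 10 genes lay 6 more CD137 and 4 more PDGFRα peaks, most of them at Pde1a, Pde10a and Pde3b. The CD137 peaks nearest the limit were 50.8 kb from Pde3b, 51.5 kb from Pde1a at chr2:80247454-80248600 and 56.1 kb from Pde10a at chr17:8468533-8469584. Just inside it were the Pde10a PDGFRα peaks 45.0 and 37.2 kb upstream. Further upstream of Pde10a, a CD137 peak at chr17:8455187-8456405 and a PDGFRα peak at chr17:8456571-8457760 stood side by side, 69.4 and 68.0 kb from the gene. Within 100 kb Pde3b had more CD137 than PDGFRα peaks and Pde1a had equal numbers.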
